A study of Mus musculus with 6 samples.

Results

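Striated muscle sarcomere and excitation genes were followed in embryonic mouse kidneys, taken whole at E13.5. The set was a list of 42 genes of the skeletal and cardiac sarcomere, of calcium release and of the muscle acetylcholine receptor. It was chosen with earlier results of these data known and matched to the gene names of the deposited table. All 42 were found among its 22394 genes. RNA was sequenced from 3 control libraries of genotype Ptch1 (flox/+), which carried a floxed and a wild-type Ptch1 allele and no Cre by their labels, and from 3 mutant libraries of genotype Foxd1Cre;Ptch1 (flox/-), which carried a floxed and a null allele with Cre driven by Foxd1, a gene of the renal stromal progenitors. The animals were littermates, no agent was given, and paired kidneys were collected. The comparison asks how kidney transcripts differ when Ptch1, the receptor that restrains Hedgehog signalling, is removed from the Foxd1 lineage. The groups also differed in the Cre transgene and in a null allele carried by every cell, and these cannot be told apart from loss of Ptch1 in that lineage.

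Striated muscle contracts when thick filaments of myosin pull on thin filaments of actin within the sarcomere. Troponin and tropomyosin on the thin filament make this pull depend on calcium, titin and the Z-disc and M-band proteins hold the filaments in register, and calcium is let out of the sarcoplasmic reticulum after the acetylcholine receptor has depolarised the fibre. Kidney holds no striated muscle as part of its own structure. In the embryo, skeletal muscle of the body wall forms close to it. Many of these genes are first switched on in embryonic forms, such as Myh3 and the alpha-actin Actc1, which the heart also uses, and are later replaced by adult forms.

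Values are FPKM, reads scaled to gene length and library depth, and are levels per length. Tests were made with limma on log2(normalized count + 1) of the 16933 genes with at least 10 normalized counts in 3 or more libraries, and a call is a Benjamini-Hochberg adjusted p under 0.05 over all of them. Log2 differences are mutant minus control, each with its standard error after the ± sign. Libraries held 13261588 (mutant 2) to 47847925 reads (mutant 3). The kidney genes Six2 (97.9 to 176 FPKM) and Pax2 (36.1 to 57.8 FPKM) were present in every library. Ptch1 was at 7.92 ± 0.331 FPKM in the controls and 29.7 ± 6.17 FPKM in the mutants (SD, n = 3 each), which does not check the deletion, since Ptch1 is itself a Hedgehog target and the value covers the whole gene. Control 2 stood apart on the first principal component, at 75.8 against -24.6 to 8.49 for the other libraries. The Y-linked gene Ddx3y was at 17.8 FPKM in control 2, 0.0177 and 0.0598 FPKM in the other controls and 13.9 to 16.2 FPKM in the mutants, so sex was not balanced between the groups, and its part in the values was not tested. Xist, the RNA of the inactive X chromosome, was at 72.9, 0.0471 and 53.3 FPKM in controls 1 to 3. In mutants 1 to 3 it was at 0.103, 0.206 and 6.19 FPKM. Mutant 3 thus held both Ddx3y and Xist, and whether it came from 1 animal was not tested. In bulk tissue, fewer muscle cells and less muscle RNA per cell cannot be told apart.

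Sarcomere genes were lower in the mutant kidneys, from the actin Acta1 to the embryonic myosin Myh3, the Z-disc crosslinker Actn2 and the calcium store protein Casq2. Of the 42 members, 29 had every control above every mutant, and none had every mutant above every control, where 7.94% and 7.48% of all genes in the table did so. All 29 were among the 39 members tested, and of all genes tested 9.09% had every control above and 7.57% every mutant above. Over all genes tested, 0.0886% were called lower in mutants (15 genes), and 9 of those 15 were members. They were Acta1, Myh3, Myh7, Myh8, Myl4, Mylpf, Actn2, Myom2 and Casq2. No member was called higher, where 0.219% of all genes were, and none was higher at an unadjusted p under 0.05, where 5.26% of all genes were. Of the 39 members tested, 27 had a lower value with an unadjusted p under 0.05, against 4.37% of all genes. In the authors' deposited table, 18 of the 35 members with an adjusted p were called lower and none higher, against 1.54% of its genes called lower and 3.07% called higher, and the 9 members called here were among the 18. Since the members were chosen with earlier results of these data known, these counts describe the list and do not test it.

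The filter on low values bears on these counts. Of the 39 members tested, 15 reached 10 normalized counts in fewer than 3 mutants, and 5 in no mutant, so they were tested because of their level in controls. The called Acta1, Myh8 and Myom2 were among the 15, and the called Casq2 among the 5. With no filter, 12 of all 42 members were called lower, against 0.0804% of all genes, the additional 3 being Neb, Ttn and Mybph. The median log2 fold change over all 42 was then -1.80, beside 0.01 over all genes. The number called moved with single libraries. Leaving out controls 1 to 3 in turn gave 3, 16 and 3 called members, and leaving out mutants 1 to 3 gave 3, 3 and 2. Only Acta1 and Myh3 of the 9 were called in all 6 of these fits. The 9 kept their sign in every one.

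**Figure D1:**
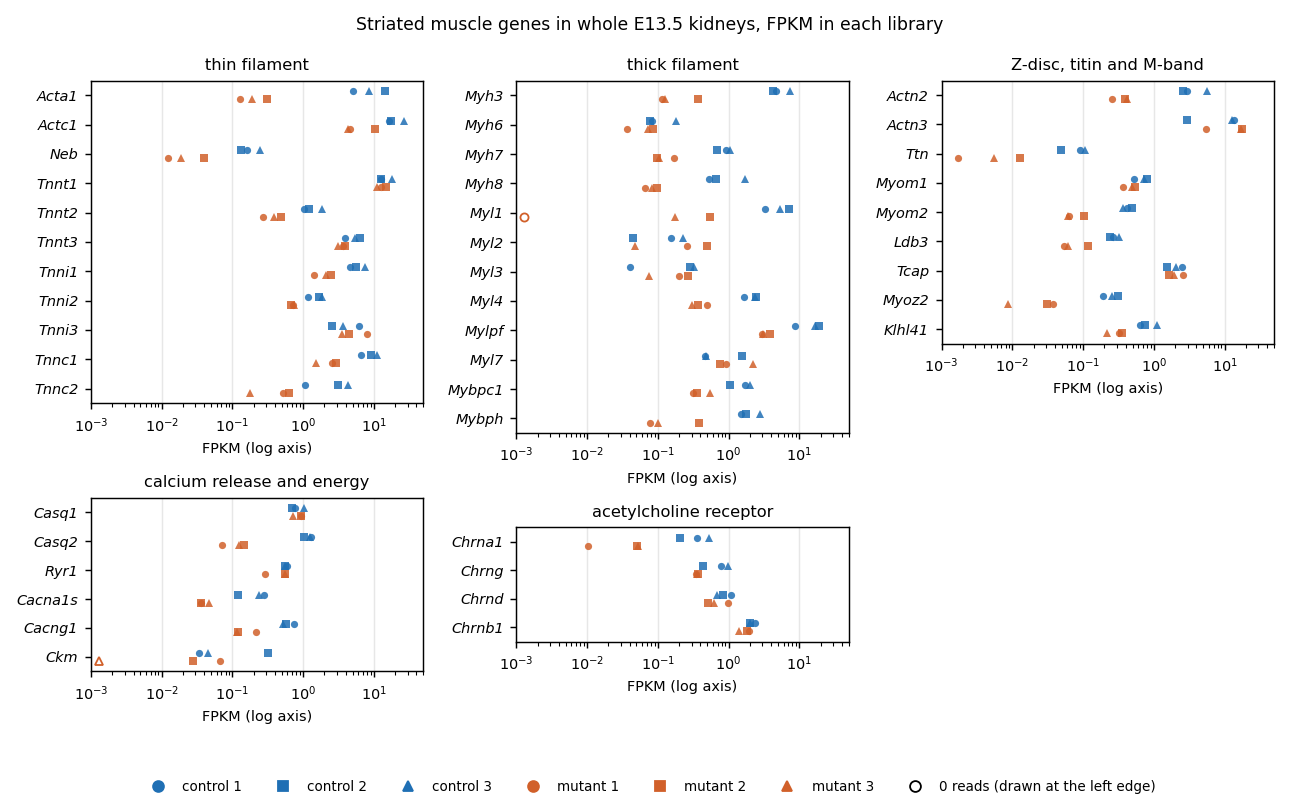
FPKM of the 42 striated muscle genes in each library, by role, on a logarithmic axis (blue, 3 controls; orange, 3 mutants; symbols give the replicate, open symbols 0 reads). Controls lie to the right of mutants without overlap for 29 genes, by over an order of magnitude for Acta1 and Myh3, while Tnnt1, Actn3, Tcap, Casq1 and Ryr1 overlap.

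These were rare transcripts. The members together took 0.0231% to 0.0319% of all reads of a control and 0.00888% to 0.0142% of those of a mutant. Of the mutant reads, many came from Actn3, a member that was not called, with 2345 of the 5560 member reads of mutant 3. The 9 called members summed to 26.5, 45.3 and 45.1 FPKM in controls 1 to 3 and to 4.34, 5.69 and 4.45 FPKM in the mutants 1 to 3. Control 2 held the level of control 3 on this sum, and control 1 was the lowest control. Control 3 was the highest control for 23 of the 42 members, and mutant 2 the highest mutant for 26.

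Thin filament genes were led by Acta1, which encodes skeletal alpha-actin (ENSMUSG00000031972.5, chromosome 8, 123891769 to 123894751, GRCm38). It stood at 5.13, 14.3 and 8.56 FPKM in controls 1 to 3 and at 0.126, 0.310 and 0.188 FPKM in the mutants 1 to 3. The highest mutant was far below the lowest control, and the fall was the largest among all 16933 genes tested (44.9-fold between means, log2 difference -5.26 ± 0.45, limma adjusted p = 0.00443). It rested on 162 to 519 reads in a control and 4 to 13 in a mutant. Actc1, cardiac alpha-actin and the embryonic actin of skeletal muscle, was at 16.3, 17.3 and 26.6 FPKM in the controls and 4.55, 10.4 and 4.33 FPKM in the mutants. Its groups did not overlap, but it was not called (log2 difference -1.73 ± 0.35, limma adjusted p = 0.112). The striated actins are close to identical as proteins, and whether reads of either gene were assigned to the other was not tested. The groups of Neb, the nebulin ruler of thin filament length, were also apart, at 0.133 to 0.246 FPKM in the controls and 0.0122 to 0.0399 FPKM in the mutants (log2 difference -2.94 ± 0.46, limma adjusted p = 0.051).

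Troponin subunits had unlike values. The slow skeletal inhibitory subunit Tnni1 was at 4.58, 5.61 and 7.41 FPKM in the controls and 1.42, 2.50 and 2.11 FPKM in the mutants. The calcium-binding subunit of slow and cardiac fibres, Tnnc1, was at 6.67, 8.96 and 11.1 FPKM in the controls and 2.53, 2.90 and 1.51 FPKM in the mutants. Neither was called here (limma adjusted p = 0.0797 and 0.0659), and both were called lower in the authors' deposited table (adjusted p = 7.81e-05 and 4.60e-05). Groups were likewise apart for Tnnt2, the cardiac and embryonic troponin T (1.03 to 1.86 and 0.274 to 0.494 FPKM), and for the fast fibre subunits Tnnc2 (1.05 to 4.24 and 0.179 to 0.641 FPKM), Tnni2 (1.18 to 1.86 and 0.668 to 0.748 FPKM) and Tnnt3 (3.95 to 6.47 and 3.16 to 3.88 FPKM), with limma adjusted p of 0.0936, 0.249, 0.392 and 0.536. The slow troponin T Tnnt1, the most abundant troponin here, was at 12.7, 12.7 and 18.02 FPKM in the controls and 12.7, 14.7 and 11.2 FPKM in the mutants. Its groups overlapped (log2 difference -0.16 ± 0.20, limma adjusted p = 0.763). The cardiac inhibitory subunit Tnni3 overlapped too, at 6.13, 2.54 and 3.66 FPKM in the controls and 7.99, 4.51 and 3.55 FPKM in the mutants.

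Of the 11 thin filament genes, 1 was called lower and 9 had every control above every mutant. Promoter sequences are shown for the actin with the largest fall, for the embryonic myosin Myh3 and the fast myosin light chain Mylpf, which fell too, for the receptor subunit Chrna1, whose groups did not overlap, and for Tnnt1, whose groups overlapped. Each is the stretch of 250 bases before the RefSeq start of the gene (GRCm38.p6), 5′ to 3′ along the gene's strand. Capitals mark every match to the E-boxes CAGCTG and CACCTG, to CATTCC (the MCAT element), to TATAAA, all on both strands, and to the CArG box and the MEF2 site, the binding sequences of serum response factor and of MEF2 proteins.
Acta1, chr8:123894776-123895025, minus strand: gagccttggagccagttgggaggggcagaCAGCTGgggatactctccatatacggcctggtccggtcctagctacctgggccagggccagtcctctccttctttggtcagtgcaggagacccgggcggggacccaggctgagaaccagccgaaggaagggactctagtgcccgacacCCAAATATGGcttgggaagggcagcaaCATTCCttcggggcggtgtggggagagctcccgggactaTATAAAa
Myh3, chr11:67078050-67078299, plus strand: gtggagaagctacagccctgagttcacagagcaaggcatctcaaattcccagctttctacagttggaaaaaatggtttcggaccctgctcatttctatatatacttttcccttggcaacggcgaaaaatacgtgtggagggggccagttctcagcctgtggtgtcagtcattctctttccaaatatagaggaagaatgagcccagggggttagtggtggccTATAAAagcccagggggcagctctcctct
Mylpf, chr7:127211358-127211607, plus strand: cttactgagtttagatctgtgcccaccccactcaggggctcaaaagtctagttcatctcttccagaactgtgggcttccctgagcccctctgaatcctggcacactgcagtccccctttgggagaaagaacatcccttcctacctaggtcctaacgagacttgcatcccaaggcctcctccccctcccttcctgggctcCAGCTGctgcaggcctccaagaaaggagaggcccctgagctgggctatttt
Chrna1, chr2:73580339-73580588, minus strand: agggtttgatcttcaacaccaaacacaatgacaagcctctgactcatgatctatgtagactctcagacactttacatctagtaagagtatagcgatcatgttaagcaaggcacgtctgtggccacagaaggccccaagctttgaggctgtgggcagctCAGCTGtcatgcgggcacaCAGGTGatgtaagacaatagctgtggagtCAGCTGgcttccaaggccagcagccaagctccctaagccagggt
Tnnt1, chr7:4515976-4516225, minus strand: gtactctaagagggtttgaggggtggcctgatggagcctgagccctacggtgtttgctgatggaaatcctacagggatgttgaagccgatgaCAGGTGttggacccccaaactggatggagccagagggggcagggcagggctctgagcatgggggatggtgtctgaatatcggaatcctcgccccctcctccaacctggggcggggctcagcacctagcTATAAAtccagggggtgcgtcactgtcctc

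The Acta1 stretch held a CArG box that began 73 bases before the start, a CATTCC match at 46 bases and a CAGCTG at 221 bases. That of Chrna1 held CAGCTG at 92 and 44 bases and CAGGTG, the other strand's reading of CACCTG, at 73 bases, while Mylpf had a single CAGCTG at 51 bases. Myh3 and Tnnt1 had TATAAA at 29 and 30 bases, and Tnnt1 a CAGGTG at 158 bases. RefSeq promoters were found for 34 of the 42 members, 39 promoters in all. The unmatched members were Tnnt3, Actn3, Tnni2, Tcap, Neb, Cacng1, Chrnd and Myom2. CAGCTG was in 16 of the 39 (41.0%), against 13% of all 32851 promoters. The CArG box was in 7 (17.9%, against 1.47%), the MEF2 site in 5 (12.8%, against 2.92%) and CATTCC in 11 (28.2%, against 12.6%). CACCTG was in 11 (28.2%, against 17.2%) and TATAAA in 8 (20.5%, against 12.4%). A TATAAA match can lie within a MEF2 site, as in Myh8. The overlapping windows of Ldb3 share a CArG box and those of Tnni1 a CAGCTG, and such a site was counted in each window. Among the 9 promoters of the 8 called members with an entry, 2 held CAGCTG, 1 the CArG box and 2 a MEF2 site. A match describes the letters of the window and is not evidence of a bound site.

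The thick filament genes held 5 of the 9 calls among 12 members, 10 of them tested. Myh3, the embryonic myosin heavy chain (ENSMUSG00000020908.14, chromosome 11, 67078300 to 67102291), was at 4.71, 4.25 and 7.36 FPKM in the controls and 0.113, 0.372 and 0.128 FPKM in the mutants. Every mutant was at least an order of magnitude below every control (26.6-fold between means, log2 difference -4.85 ± 0.44, limma adjusted p = 0.00529), with 620 to 1091 reads in a control and 15 to 37 in a mutant. The perinatal heavy chain Myh8 (ENSMUSG00000055775.16, chromosome 11, 67277124 to 67308634) was at 0.536, 0.662 and 1.70 FPKM in the controls and 0.0667, 0.0972 and 0.0816 FPKM in the mutants. Control 3 was well above the other controls, and all controls were above the mutants (log2 difference -3.28 ± 0.45, limma adjusted p = 0.0314). Myh7, the slow and ventricular heavy chain (ENSMUSG00000053093.16, chromosome 14, 54970684 to 54994626), fell from 0.934, 0.685 and 1.06 FPKM to 0.168, 0.0960 and 0.104 FPKM (log2 difference -2.81 ± 0.33, limma adjusted p = 0.0147). Its neighbour Myh6, the atrial heavy chain, was near the detection limit in both groups, with 11 to 27 reads in controls and 5 to 21 in mutants, and was not called (log2 difference -0.71 ± 0.50, limma adjusted p = 0.626).

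Myosin light chains stabilise the lever arm of the heavy chain. Mylpf, the fast skeletal regulatory light chain (ENSMUSG00000030672.12, chromosome 7, 127208890 to 127214298), fell from 8.85, 18.8 and 16.7 FPKM in controls to 2.97, 3.81 and 3.03 FPKM in the mutants (log2 difference -2.09 ± 0.31, limma adjusted p = 0.038). It was still the most abundant thick filament gene of the mutants. Myl4, the light chain of atrium and embryonic muscle (ENSMUSG00000061086.12, chromosome 11, 104550663 to 104595753), fell from 1.67, 2.46 and 2.39 FPKM to 0.501, 0.365 and 0.307 FPKM (log2 difference -2.44 ± 0.29, limma adjusted p = 0.0158). Myl1, the fast essential light chain, had a fold change as large as that of Myh3 but spread widely among mutants. It was at 3.30, 7.12 and 5.34 FPKM in the controls and 0, 0.553 and 0.174 FPKM in the mutants (log2 difference -4.90 ± 0.88, limma adjusted p = 0.0811). The 0 reads of mutant 1 allow a level of up to 0.126 FPKM, that of 3 reads, for counting error only. The authors' deposited table did not call it either (adjusted p = 0.0914).

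Of the 3 remaining light chains, 1 was tested. Myl7, the atrial regulatory light chain, was at 0.466, 1.55 and 0.483 FPKM in the controls and 0.927, 0.760 and 2.23 FPKM in the mutants (log2 difference 0.66 ± 0.60, limma adjusted p = 0.684). The ventricular chains Myl2 (1 to 5 reads in a control, 2 to 6 in a mutant) and Myl3 (1 to 9 and 4 to 5 reads) were under the filter, and no difference was detectable at this depth. The myosin-binding proteins were lower in every mutant. Mybph, the fast fibre protein H, was at 1.501 to 2.81 FPKM in the controls and 0.0786 to 0.387 FPKM in the mutants (log2 difference -3.57 ± 0.56, limma adjusted p = 0.051). Mybpc1, the slow fibre protein C, was at 1.05 to 1.99 and 0.314 to 0.554 FPKM (log2 difference -1.91 ± 0.34, limma adjusted p = 0.0797). Both were called lower in the authors' deposited table (adjusted p = 8.55e-07 and 0.00198).

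**Figure D2:**
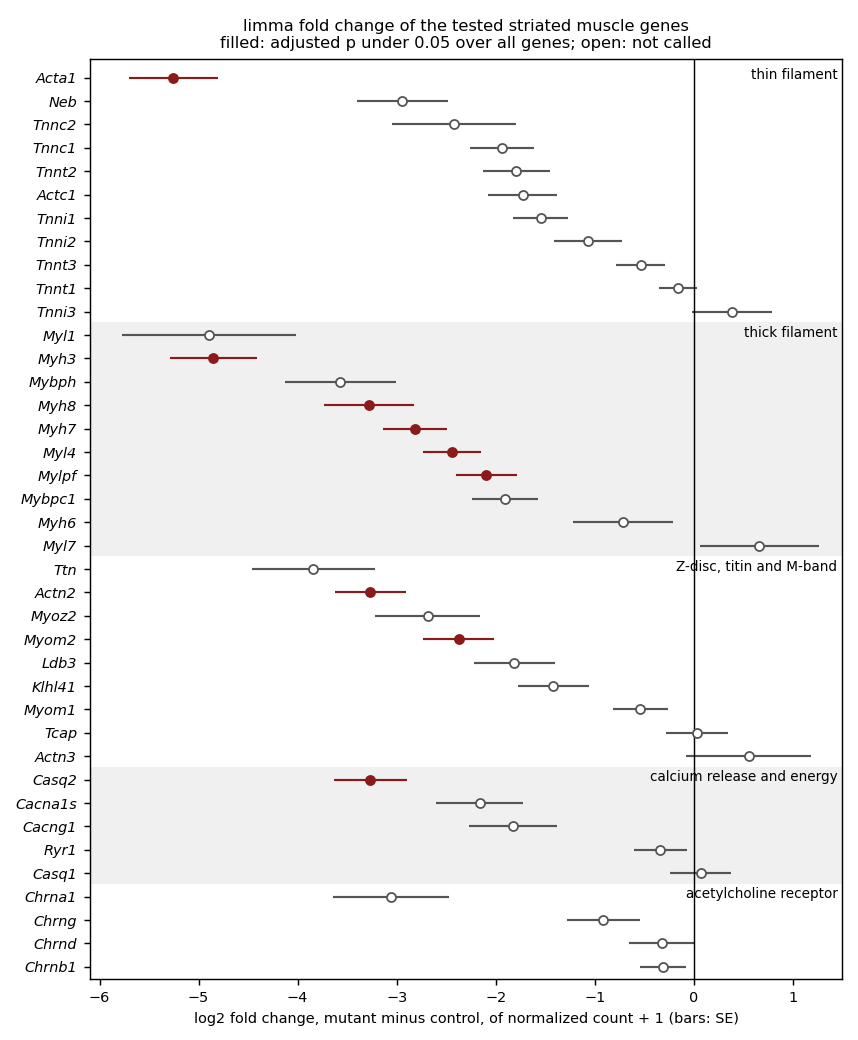
limma log2 fold change of normalized count + 1, mutant minus control, for the 39 tested genes by role, with the standard error as bars; filled points were called over all genes tested. Estimates run from -5.26 (Acta1) to 0.66 (Myl7), and the 9 called genes lie at -2.09 or below.

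Among Z-disc, titin and M-band genes, 2 of 9 were called lower. Actn2, the alpha-actinin that crosslinks thin filaments at the Z-disc (ENSMUSG00000052374.15, chromosome 13, 12269426 to 12340760), fell from 2.94, 2.57 and 5.70 FPKM in controls to 0.257, 0.397 and 0.423 FPKM in the mutants (log2 difference -3.27 ± 0.36, limma adjusted p = 0.0139). Myom2, an M-band protein that ties myosin to titin (ENSMUSG00000031461.4, chromosome 8, 15057653 to 15133541), fell from 0.415, 0.487 and 0.361 FPKM to 0.0628, 0.103 and 0.0618 FPKM (log2 difference -2.38 ± 0.36, limma adjusted p = 0.043). Ttn, the giant spring protein, was at 0.0892, 0.0489 and 0.106 FPKM in the controls and 0.00171, 0.0126 and 0.00548 FPKM in the mutants. This came from 131 to 279 reads in a control and 4 to 28 in a mutant over a very long transcript, and it just missed the threshold (log2 difference -3.84 ± 0.62, limma adjusted p = 0.0588).

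The calcineurin-binding Z-disc protein Myoz2, the Z-disc adaptor Ldb3 and the sarcomere assembly factor Klhl41 also had every control above every mutant, at 0.190 to 0.314 against 0.00867 to 0.0378 FPKM, 0.242 to 0.326 against 0.0534 to 0.117 FPKM and 0.634 to 1.09 against 0.215 to 0.355 FPKM. None of the 3 was called (limma adjusted p = 0.107, 0.160 and 0.242). Myom1 overlapped, at 0.532 to 0.790 and 0.366 to 0.534 FPKM. So did the titin cap gene Tcap, at 2.46, 1.51 and 2.06 FPKM in the controls and 2.595, 1.66 and 1.92 FPKM in the mutants. Actn3, the alpha-actinin of fast fibres, stood apart from its relative Actn2. It was at 13.4, 2.96 and 12.9 FPKM in the controls and 5.38, 17.6 and 17.0 FPKM in the mutants, with control 2 and mutant 1 low. Its log2 fold change was 0.55 (SE 0.64, limma adjusted p = 0.748), and -0.16 without control 2.

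Calcium release genes held 1 call among 6 members, 5 of them tested. Casq2, a calsequestrin that buffers calcium in the sarcoplasmic reticulum of cardiac and slow fibres (ENSMUSG00000027861.13, chromosome 3, 102086415 to 102146514), fell from 1.31, 1.03 and 1.26 FPKM in controls to 0.0713, 0.146 and 0.123 FPKM in the mutants (log2 difference -3.27 ± 0.37, limma adjusted p = 0.0147). Casq2 had 66 to 79 reads in a control and 4 to 15 in a mutant. Its fast fibre relative Casq1 was at 0.769, 0.691 and 1.01 FPKM in the controls and 0.937, 0.931 and 0.713 FPKM in the mutants, with overlapping groups (log2 difference 0.07 ± 0.31, limma adjusted p = 0.944, and -0.084 with quantile normalization). Of the voltage sensor of the T-tubule, the pore subunit Cacna1s (0.121 to 0.279 and 0.0359 to 0.0468 FPKM) and the gamma subunit Cacng1 (0.521 to 0.734 and 0.117 to 0.219 FPKM) had every control above every mutant without being called (limma adjusted p = 0.116 and 0.210). Ryr1, the release channel they open, was at 0.597, 0.545 and 0.559 FPKM in the controls and 0.291, 0.560 and 0.551 FPKM in the mutants. Only mutant 1 lay below the controls (log2 difference -0.34 ± 0.27, limma adjusted p = 0.650). Ckm, the muscle creatine kinase that regenerates ATP, had 22 reads in control 2 and 0 to 4 in each of the other libraries, too few to test. The 0 was in mutant 3 and allows up to 0.0229 FPKM.

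No acetylcholine receptor gene was called among the 4. The ligand-binding alpha subunit Chrna1 was at 0.355, 0.209 and 0.529 FPKM in the controls and 0.0104, 0.0511 and 0.0524 FPKM in the mutants (log2 difference -3.05 ± 0.59, limma adjusted p = 0.101, and 0.0194 in the authors' deposited table). It rested on 23 to 57 reads in a control and 1 to 11 in a mutant. The embryonic gamma subunit Chrng was at 0.775, 0.430 and 0.995 FPKM in the controls and 0.344, 0.376 and 0.361 FPKM in the mutants (log2 difference -0.92 ± 0.37, limma adjusted p = 0.490). The beta subunit Chrnb1 was the most abundant of the 4 in every library, at 2.00 to 2.38 FPKM in the controls and 1.39 to 1.97 FPKM in the mutants (log2 difference -0.31 ± 0.23, limma adjusted p = 0.637). Chrnd, the delta subunit, overlapped at 0.690 to 1.09 and 0.507 to 0.973 FPKM.

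Shares of the summed FPKM of a protein family show how its members stood to each other, and are given as a description, with no test. Acta1 made up 24.0%, 45.2% and 24.3% of striated alpha-actin in controls 1 to 3 and 2.70%, 2.89% and 4.16% in mutants, the rest being Actc1. Myh3 made up 71.5% to 75.2% of the 4 myosin heavy chains in controls and 29.4%, 57.2% and 33.2% in mutants, while Myh6 took 1.32% to 1.74% of them in controls and 9.67% to 18.6% in mutants, from few reads. Casq2 made up 55.4% to 63.0% of calsequestrin in controls and 7.07% to 14.7% in mutants. Actn2 was 17.97%, 46.4% and 30.7% of the alpha-actinin pair in controls and 2.20% to 4.56% in mutants. In the troponins, Tnni3 made up 25.9% to 51.6% of troponin I in controls and 55.4% to 79.0% in mutants. Troponin T was mostly Tnnt1 in both groups (62.4% to 71.8% and 75.9% to 77.1%), while the shares of Tnnt3 overlapped (21.5% to 31.7% and 20.4% to 22.0%). The groups also overlapped in troponin C, of which Tnnc1 made up 72.3% to 86.4% in controls and 81.9% to 89.4% in mutants.

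**Figure D3:**
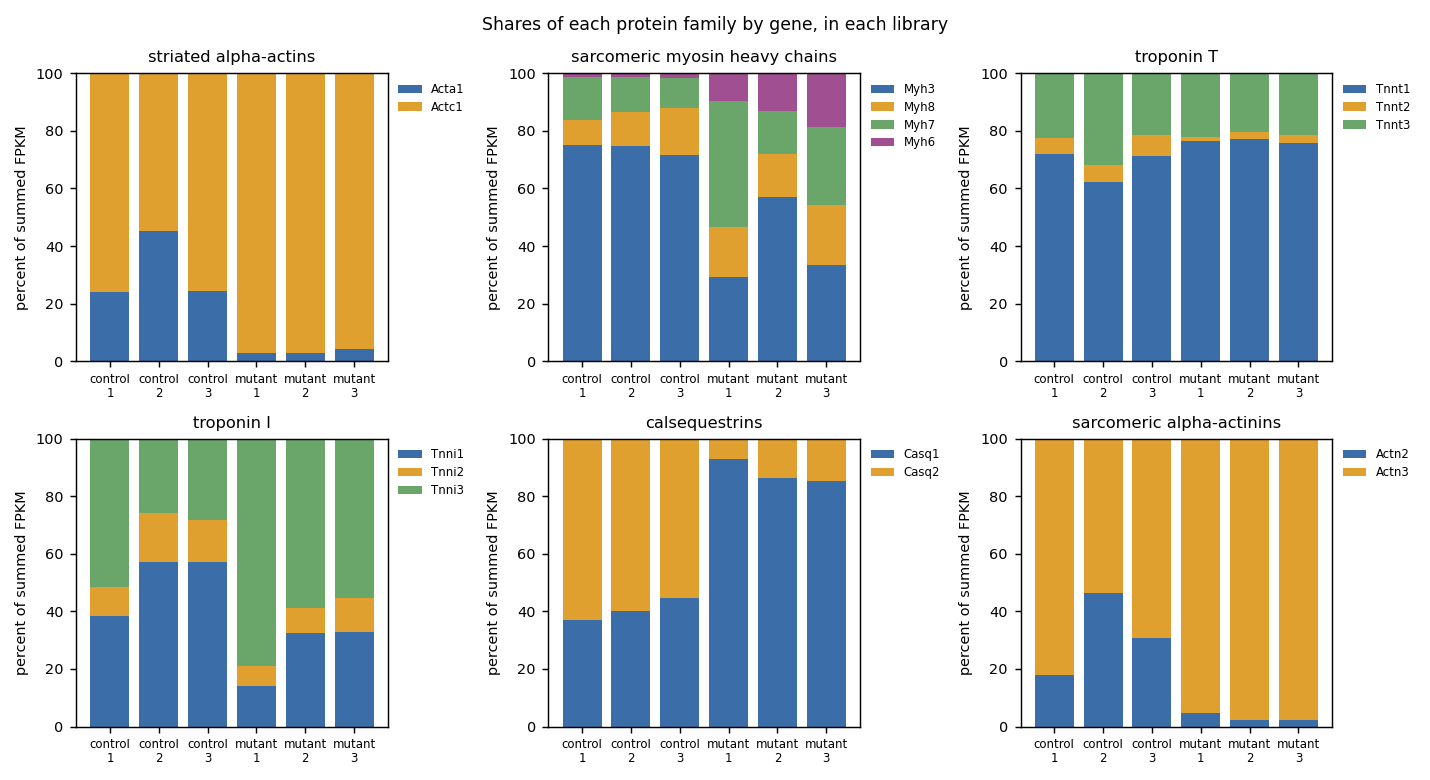
Share of the summed FPKM of 6 protein families taken by each gene, in percent, 1 bar for each library. Acta1, Myh3, Casq2 and Actn2 take a smaller share in each mutant than in any control, and troponin T is mostly Tnnt1 throughout.

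Members that lie near each other in the genome did not always have like values. Myh3 and Myh8, 174832 bases apart on chromosome 11, were both called lower. Myh6 and Myh7, 3756 bases apart on chromosome 14, had log2 fold changes of -0.71 and -2.81. Tnnt1 and Tnni3, 1922 bases apart on chromosome 7, were at -0.16 and 0.39, and Tnni2 and Tnnt3, 54425 bases apart on the same chromosome, at -1.07 and -0.54. Chrnd and Chrng, 4586 bases apart on chromosome 1, were at -0.32 and -0.92, and Tnni1 and Tnnt2, 25364 bases apart there, at -1.55 and -1.79. Differences within these pairs were not tested. In the annotation, 16 members share exon bases with another gene and 6 with a protein-coding one. Counts are uncertain for overlaps on opposite strands where reads were not assigned by strand. Tnni3 shares 86 of 2063 exon bases with Dnaaf3 on the same strand, and strand cannot separate those reads. As a share of the member, the largest overlaps were those of Tnnc2 with the mitotic gene Ube2c (592 of 800 exon bases), which was at 119 FPKM in the controls and 124 FPKM in the mutants, and of Mybph with Adora1 (1162 of 2329 bases, 1.21 and 1.41 FPKM).

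Other genes of striated muscle, from 3 lists of 82, were measured beside the members. Of these, 71 were measured, 49 were tested and 1 was called lower, against 0.0886% of all genes tested. It was Smyd1, a muscle methyltransferase needed for sarcomere assembly, at 0.736, 0.736 and 0.957 FPKM in the controls and 0.0407, 0.111 and 0.0995 FPKM in the mutants (log2 difference -3.18 ± 0.42, limma adjusted p = 0.0276). Smyd1 had 54 to 79 reads in a control and 3 to 16 in a mutant. It reached 10 normalized counts in no mutant, so it was tested because of its level in controls. None of the 49 was called when control 1, control 3 or any single mutant was left out, and 3 were called without control 2. Over the 71, 21 had every control above every mutant and 2 the reverse, against 7.94% and 7.48% of all genes. With no filter their median log2 fold change was -0.22, nearer to 0 than the -1.80 of the members. The M-band protein Myom3 (0.321 to 0.429 and 0.0675 to 0.121 FPKM) and the ubiquitin ligase Trim55 (0.323 to 0.580 and 0 to 0.0864 FPKM) had groups that did not overlap and limma adjusted p of 0.0838 and 0.112. Trim55 had 0 reads in mutant 1, which allows up to 0.0527 FPKM. Abundant genes shared with other cells, such as the tropomyosins Tpm1 (81.2 to 126 and 130 to 179 FPKM) and Tpm2 (71.0 to 109 and 94.0 to 104 FPKM), the filament gene Des (28.4 to 52.2 and 36.1 to 47.6 FPKM) and the calcium pump Atp2a2 (32.8 to 57.3 and 35.2 to 49.8 FPKM), were not called, although every mutant was above every control for Tpm1. Another tropomyosin, Tpm3, had a negative log2 difference and overlapping groups (88.8 to 183 and 66.2 to 95.8 FPKM, -0.61 ± 0.26, limma adjusted p = 0.513). The authors' deposited table called 4 genes of the 3 lists lower and none higher, against 1.54% and 3.07% of its genes. They were Smyd1, Myom3 (adjusted p = 0.0367), Tpm3 (adjusted p = 0.0039) and Srl (adjusted p = 0.00305).

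Markers of the muscle lineages were read in the same libraries. Of 12 myogenic regulator and fusion genes, 8 were tested and 2 were called lower by limma, against 0.0886% of all genes tested. They were the differentiation factor Myog (4.80 ± 1.497 to 0.710 ± 0.343 FPKM) and the fusion protein gene Mymk (1.09 ± 0.343 to 0.0753 ± 0.0272 FPKM, SD, n = 3, limma adjusted p = 0.0317 and 0.0264). Mymk had 28 to 50 reads in a control and 1 to 7 in a mutant. It too was tested because of its level in controls. The summed level of the 11 measured was 13.4 to 20.3 FPKM in the controls and 6.93 to 7.99 FPKM in the mutants. The determination gene Myod1 was at 1.13, 1.09 and 2.36 FPKM in the controls and 0.0735, 0.321 and 0.225 FPKM in the mutants, and was not called by limma (limma adjusted p = 0.101). The authors' deposited table called 5 of the 11 lower and none higher, against 1.54% and 3.07% of its genes. Those were Myod1 (adjusted p = 0.00149), Myog, Mymk, Cdh15 and Vgll2. The progenitor genes Pax3, Pax7 and Myf5 had at most 14 reads in any library. Of 9 cardiomyocyte genes 5 were measured and none was called by limma among 3 tested, with summed levels of 5.41 to 12.9 and 9.18 to 16.5 FPKM, mostly Tbx18, which kidney stroma also expresses. Hand2, a factor of heart and of sympathetic neurons, was at 0.0974, 0.136 and 0.242 FPKM in the controls and 0.504, 0.382 and 2.97 FPKM in the mutants. Every mutant was above every control (log2 difference 2.36 ± 0.74, limma adjusted p = 0.384), and the authors' deposited table called it higher (adjusted p = 0.00951). Tbx20 had 0 to 1 reads in a control and 3 to 39 in a mutant, and the 0 of control 1 allows up to 0.0151 FPKM. The defining cardiac genes Nkx2-5, Tbx5, Nppa and Nppb had no entry under these names in the deposited table. That table held no gene with fewer than 10 reads in all.

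None of the 10 smooth muscle markers was called by limma. All 10 had positive fold changes, 3 had every mutant above every control, against 7.48% of all genes, and 7 overlapped. The authors' deposited table called those 3 higher, against 3.07% of its genes. They were Tagln, Cnn1 and the myosin kinase Mylk (adjusted p = 0.0130, 0.0212 and 0.0245). The sum of all 10 was 45.1 to 81.2 FPKM in the controls and 78.1 to 126 FPKM in the mutants. Calponin, Cnn1, was at 0.231, 0.804 and 0.291 FPKM in the controls and 4.04, 0.942 and 1.76 FPKM in the mutants (log2 difference 2.26 ± 0.61, limma adjusted p = 0.274). The 10 tendon and cartilage genes summed to 50 to 117 FPKM in the controls and 102 to 114 FPKM in the mutants, with none called by limma among 8 tested. The authors' deposited table called 4 of them higher, the collagens Col2a1 and Col11a1, the matrix protein gene Matn4 and the chondrocyte factor Sox9. The 10 neuronal and chromaffin genes summed to 7.32 to 12.4 FPKM in the controls and 9.73 to 26.3 FPKM in the mutants, with none called by limma among 9 tested and mutant 3 the highest. The noradrenaline enzyme gene Dbh was at 0.126, 0.0782 and 0.335 FPKM in the controls and 0.714, 0.264 and 4.17 FPKM in the mutants, with overlapping groups. The authors' deposited table called Th, Dbh and Chga higher. The nephron progenitor and ureteric bud genes summed to 414 to 489 and 392 to 488 FPKM, and the kidney stroma genes to 511 to 773 and 559 to 658 FPKM, with overlapping ranges and no limma call. These sums join genes of opposite direction. In the stroma list Pdgfra, Pdgfrb and Tcf21 had every mutant above every control and Aldh1a2 the reverse. In the nephron and bud list Gata3 had every mutant above every control, and Eya1, Wt1 and Pax2 the reverse. The authors' deposited table called Pdgfra, Pdgfrb and Gata3 higher and Wt1 lower. The part of any of these cell types in the values of the sarcomere genes was not tested.

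**Figure D4:**
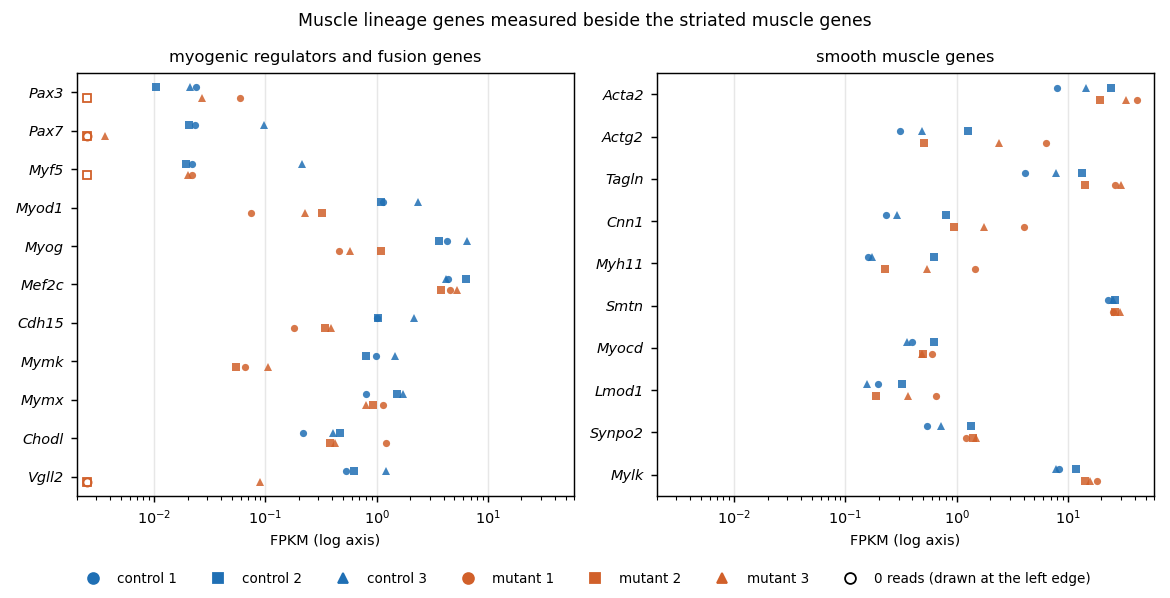
FPKM of 11 myogenic and 10 smooth muscle genes in each library on a logarithmic axis (symbols as for the striated muscle genes, open symbols 0 reads). Myog and Mymk lie lower in all 3 mutants, as do Myod1, Cdh15 and Vgll2, which were called lower in the authors' deposited table but not by limma. The smooth muscle genes lie level or to the right in mutants.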

How the data were processed

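Messenger RNA of 6 whole-kidney libraries was measured, grouped by the genotype in their titles. The mm10 build, HTSeq 0.6.1p2, STAR 2.6.0c, DESeq2 and Trim Galore are named, without their roles, per the submitters' processing notes. The strand setting of the counting was not given in the sources used here. The deposited columns hold FPKM made by the authors. No header names that unit, which was read from the values. The deposited table also holds a mean normalized signal per gene, log2 fold changes with standard errors, a test score (Wald statistic) and p-values with an adjusted form, all by the authors, per the file headers.

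FPKM times the mean normalized signal over the row's mean FPKM gave size-factor normalized counts, and 100% of 134364 values were whole reads to within a relative 1e-06. Each library's depth is the sum of these reads. No gene with fewer than 10 reads in all was in the table. A count model was not fitted, and the authors' deposited table is its counterpart. limma 3.58.1 (R 4.3.3) was run with an intensity trend, no covariate and a pseudocount of 1, and was tested on simulated data. Fold changes on this scale understate those of low genes. p-values measure the spread between 3 libraries a group, taken to be separate mice, although mutant 3 held both Ddx3y and Xist.

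The members, gene lists and naming rule were chosen with earlier results of these data known. All 42 members are accounted for, the 9 called ones and up to 4 per role with full values. From other lists, called genes with the smallest p were named, and Myom3, Trim55, Myod1, Cnn1, the tropomyosins, Des, Atp2a2, Tbx20, Hand2, Dbh and the other genes of cell type lists named without a test were chosen after their values were seen. Positions are from GENCODE M21 (GRCm38, the assembly of mm10), promoters from RefSeq (GRCm38.p6). Alternatives were other pseudocounts, filters, scalings, library weights, a replicate block and leaving out each library.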

Additional observations from a re-analysis of the deposited data

How the results depend on the processing

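Of the 9 called members, Acta1 and Myh3 were called under every alternative run, with adjusted p up to 0.0414, and none of the 9 changed sign. Leaving out 1 library at a time gave 2 to 16 members called lower, a median log2 fold change of -2.10 to -1.70 and 0 to 3 other striated muscle genes called, from fewer samples. Deviations of same-numbered libraries correlated at r = 0.00081, -0.098 and 0.309, so only 1 of 3 pairs was above 0.1, and the numbers were not taken as pairs. With the replicate block 3 members and 0 other muscle genes were called, and with library weights, whose estimation stopped before convergence, 25 and 6. Filtering at 1 FPKM in 3 libraries left 21 members, 17 of them without overlap, and called 6 members and 0 other muscle genes. On log2(FPKM + 1), again with 17 and 0, 7 members were called and the median was -1.18. The remaining scalings and pseudocounts called 9 to 13 members, and no setting called a member higher. Directions near 0 were not stable. Tcap (0.03 in the reported test) was at -0.13 with quantile normalization, -0.12 with library weights and -0.15 to 0.19 without single libraries. Casq1 was at -0.084, -0.19 and -0.047 to 0.22 in the same settings. Without single libraries Tnnt1 ranged from -0.26 to 0.0084 and Actn3 from -0.16 to 1.11. Depth limits Myl2, Myl3, Ckm, Myh6, Myoz2 and Cacng1, which had under 30 reads in every library. Myoz2 had 10 to 19 reads in a control and 1 to 2 in a mutant, and Cacng1 16 to 20 and 2 to 7.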

Other observations

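Some fold changes of the authors' deposited table stood away from those fitted here. For Actn3 the authors' deposited table gave a log2 fold change of 1.26 (adjusted p = 0.490), where limma gave 0.55. For Tnnc2 it gave -3.34 (adjusted p = 0.00175), where limma gave -2.42 (limma adjusted p = 0.249). The covariates of the authors' model were not given in the sources used here.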
